A study of Mus musculus with 16 samples.

Results

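Osr1, Klf4, Pla1a, Fndc1, Scara3, Flrt2, Tmem100, Errfi1 and Ecm1 are 9 of the 54532 genes in the deposited expression table, and they were chosen by how clearly they separated Has2_TG from Has2_WT inguinal white adipose tissue (iWAT). The expression values of those 8 libraries made the choice, so the Has2 values of the 9 genes are given as a description with no test, and the PH20 libraries, which the choice did not use, carry the tests. RNA from iWAT of 16 male mice, 8 to 10 weeks old, was sequenced in 4 groups of 4. Has2_TG mice were Apn-Has2 (Apn-rtTA/TRE-Has2), which make the hyaluronan synthase Has2 in cells with an active adiponectin promoter, and PH20_TG mice were Apn-PH20 (Apn-rtTA/TRE-PH20), which make the hyaluronidase PH20, encoded by Spam1, from the same promoter. Has2_WT and PH20_WT were the littermate Apn-rtTA controls of each line, which carry the doxycycline-dependent activator rtTA and no TRE transgene. All 4 groups ate chow with 200 mg/kg doxycycline for 5 days, so doxycycline and rtTA are shared by controls and transgenic mice. Values are FPKM, the fragments counted for a gene over its length and the library total, so levels of different genes can be compared.

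Hyaluronan is a long sugar polymer of the extracellular matrix, spun out through the plasma membrane by hyaluronan synthases and cut by hyaluronidases. In white fat it surrounds adipocytes and the stromal cells between them, among which are the Pdgfra-positive progenitors that give rise to new adipocytes. The 9 genes belong to no single pathway. Osr1 and Klf4 are zinc finger transcription factors, Osr1 of embryonic mesenchyme and connective tissue fibroblasts and Klf4 of several tissues and of induced pluripotency. Errfi1 encodes a cytoplasmic protein that binds and inhibits the EGF receptor, and Tmem100 a small membrane protein known as a target of ALK1 signalling in endothelium. Flrt2 is a cell surface protein with leucine-rich repeats that binds Unc5 receptors and latrophilins, and Scara3 belongs to the class A scavenger receptors. Pla1a is a secreted phospholipase that makes lysophosphatidylserine, Ecm1 is a secreted matrix glycoprotein that binds perlecan, fibulin and fibronectin, and Fndc1 is a protein with fibronectin type III domains.

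The sequence just upstream of the transcription start differed among the genes that rose together in Has2_TG. RefSeq promoters (GRCm38.p6) were at hand for 5 of the 9 genes, in 6 promoters since Errfi1 has a pair of them, and Osr1, Pla1a, Scara3 and Tmem100 had none. The 250 bases before the start are printed below for 4 of the 6 promoters, to set one rich in GC boxes, one with a cyclic AMP response element, one with an AP-1 site and one with a single match side by side, 5′ to 3′ on the strand of the gene, in lower case with the letters of every motif found in capitals.
Ecm1, chr3:95739570-95739819, minus strand: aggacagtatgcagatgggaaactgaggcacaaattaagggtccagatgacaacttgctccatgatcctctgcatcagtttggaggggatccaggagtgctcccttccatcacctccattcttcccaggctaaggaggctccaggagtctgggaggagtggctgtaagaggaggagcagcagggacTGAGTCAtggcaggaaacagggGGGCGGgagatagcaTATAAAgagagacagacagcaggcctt
Klf4, chr4:55532476-55532725, minus strand: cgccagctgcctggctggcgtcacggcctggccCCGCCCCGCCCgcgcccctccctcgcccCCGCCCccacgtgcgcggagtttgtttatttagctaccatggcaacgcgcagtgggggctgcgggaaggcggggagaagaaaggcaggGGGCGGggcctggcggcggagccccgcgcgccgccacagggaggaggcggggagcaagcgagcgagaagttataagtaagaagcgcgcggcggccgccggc
Errfi1, start 2, chr4:150854820-150855069, plus strand: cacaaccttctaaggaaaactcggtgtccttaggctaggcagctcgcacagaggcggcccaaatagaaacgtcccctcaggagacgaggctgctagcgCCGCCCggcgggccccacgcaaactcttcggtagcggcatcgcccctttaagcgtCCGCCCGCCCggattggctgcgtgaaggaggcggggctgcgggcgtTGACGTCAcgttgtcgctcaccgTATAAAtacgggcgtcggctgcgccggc
Flrt2, chr12:95691976-95692225, plus strand: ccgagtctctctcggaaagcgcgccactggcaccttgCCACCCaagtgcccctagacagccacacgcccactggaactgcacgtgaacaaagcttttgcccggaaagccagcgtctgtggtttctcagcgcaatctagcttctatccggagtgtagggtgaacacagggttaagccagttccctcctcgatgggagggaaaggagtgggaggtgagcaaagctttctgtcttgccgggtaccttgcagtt
Each motif was searched on both strands from 250 bases before to 50 after the start, over 32851 promoters. The Klf4 promoter was 74.0% G and C, against a median of 52.4% over all promoters, and held 4 GC boxes (GGGCGG), the first pair of which share a base. Start 2 of Errfi1 had 3 GC boxes, of which the last pair overlap, a cyclic AMP response element (TGACGTCA, bases -51 to -44) and a TATA box (TATAAA, -28 to -23). The Ecm1 promoter had an AP-1 site (TGANTCA, -64 to -58), a GC box and a TATA box (-27 to -22). In Flrt2 a KLF box (CCACCC, -213 to -208) was the one match. Fndc1, not printed, held a KLF box, a GC box, the SMAD1/5 letters GGCGCC and a TATA box on the other strand, and start 1 of Errfi1 held the TEAD letters GGAATG. Over all promoters the GC box was found in 35.66% (4 of these 6), the KLF box in 31.48% (2 of 6), the TEAD letters in 14.66% (1), the TATA box in 13.62% (3), the SMAD1/5 letters in 11.87% (1), the AP-1 site in 7.808% (1) and the cyclic AMP response element in 1.79% (1). The CArG box, in 1.629% of promoters, was in none of the 6. No motif was in all 6 promoters, and a match of letters says nothing of whether a factor binds there. The RefSeq start of Klf4 and both starts of Errfi1 lie at other bases than the 5′ ends of these genes in the deposited table.

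The transgenes were checked first. Has2 was 0.585 FPKM ± 0.176 in Has2_WT and 2.59 ± 0.631 in Has2_TG (SD, n = 4), and the lowest Has2_TG library (1.86 FPKM) was above the highest Has2_WT library (0.806 FPKM). It did not pass adjustment (limma adjusted p = 0.054). PH20_TG1 and PH20_TG4, without a Has2 transgene, had 3.32 and 3.26 FPKM, above the highest Has2_TG library (3.24 FPKM). PH20_TG2 and PH20_TG3 had 0.380 and 0.0990 FPKM. The Has2 level alone therefore cannot show that the transgene was expressed. Spam1 had 6, 12 and 5 reads in PH20_TG2, PH20_TG3 and PH20_TG4, 0 reads in the library labelled PH20_TG1, which allows up to 3 by counting error alone, and 0 reads in all other libraries. Each library had 14421692 to 26751729 reads on genes, and the 9 genes had a mean of 295 to 4525 reads over the 8 libraries of a study. The summed FPKM of 8 B cell markers was 320 and 258 in Has2_WT1 and Has2_WT2 and 330 and 122 in PH20_WT1 and PH20_WT3, and at most 6.44 in the other libraries. All 8 adipocyte markers had reads, with sums of 4050 to 9918 FPKM.

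Osr1 (chromosome 12, 9570116-9581500, plus strand) was 3.45, 4.03, 2.65 and 4.44 FPKM in Has2_WT1 to Has2_WT4 and 13.5, 10.96, 18.6 and 11.9 FPKM in Has2_TG1 to Has2_TG4. Every Has2_TG library was above every Has2_WT library. Its log2 difference, Has2_TG minus Has2_WT on log2(FPKM + 0.1), was 1.88 (SE 0.22). Among the PH20 libraries Osr1 was 11.5, 2.95, 7.53 and 8.49 FPKM in PH20_WT1 to PH20_WT4, and 12.8, 2.56, 2.23 and 17.2 FPKM in PH20_TG1 to PH20_TG4. The PH20_TG values fell on both sides of the PH20_WT values, libraries 1 and 4 above and libraries 2 and 3 below all 4 controls. The difference was -0.19 (SE 0.72, limma unadjusted p = 0.800, exact permutation p = 0.886).

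Klf4 (chromosome 4, 55527143-55532466, minus strand) was 10.5, 9.05, 11.1 and 12.7 FPKM in Has2_WT1 to Has2_WT4 and 22.9, 27.0, 35.3 and 30.7 FPKM in Has2_TG1 to Has2_TG4. The groups did not overlap, and the difference of 1.40 (SE 0.17) was the smallest of the 9 on the log2 scale with the smallest error. In PH20_WT1 to PH20_WT4 Klf4 was 26.8, 19.3, 21.9 and 33.7 FPKM, and in PH20_TG1 to PH20_TG4 it was 52.4, 11.01, 10.5 and 53.1 FPKM. All 4 PH20_WT controls were above all 4 Has2_WT controls, libraries of another mouse line, as they were for Flrt2 and Errfi1. The PH20_TG libraries were again split around their controls. The PH20 difference was -0.06 (SE 0.57, limma unadjusted p = 0.917, exact permutation p = 0.886).

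Errfi1 (chromosome 4, 150853919-150868892, plus strand) was 10.9, 11.4, 7.81 and 6.58 FPKM in Has2_WT1 to Has2_WT4 and 19.9, 33.1, 31.4 and 32.7 FPKM in Has2_TG1 to Has2_TG4. The groups did not overlap, Has2_TG1 stood below the other three, and the log2 difference was 1.67 (SE 0.23). Its PH20 values were 21.1, 11.8, 12.5 and 11.5 FPKM in PH20_WT1 to PH20_WT4 and 58.1, 10.3, 10.7 and 46.6 FPKM in PH20_TG1 to PH20_TG4. On the log2 scale it was the one gene of the 9 whose PH20 difference had a positive sign, 0.76 (SE 0.58, limma unadjusted p = 0.225, exact permutation p = 0.429). PH20_TG2 and PH20_TG3 lay just under the lowest PH20_WT library.

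Tmem100 (chromosome 11, 90030348-90036508, plus strand) was 1.66, 3.60, 3.0 and 5.96 FPKM in Has2_WT1 to Has2_WT4 and 18.6, 14.8, 15.8 and 17.8 FPKM in Has2_TG1 to Has2_TG4. The Has2_TG libraries lay within 1.26-fold of each other, the narrowest range of the 9 genes there, and the log2 difference was 2.34 (SE 0.32). Tmem100 in PH20_WT1 to PH20_WT4 was 12.7, 3.06, 8.98 and 10.8 FPKM, and in PH20_TG1 to PH20_TG4 it was 33.3, 2.65, 1.12 and 32.8 FPKM. The 2 high PH20_TG libraries were above every other library of the series for this gene, and the 2 low ones were below all 4 controls. The difference was -0.03 (SE 1.09, limma unadjusted p = 0.978, exact permutation p = 0.971).

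Flrt2 (chromosome 12, 95692226-95785215, plus strand) was the least abundant of the 9. It was 0.908, 0.371, 0.481 and 1.13 FPKM in Has2_WT1 to Has2_WT4 and 4.19, 3.25, 4.57 and 4.91 FPKM in Has2_TG1 to Has2_TG4, from 50 to 815 reads a library. The log2 difference of 2.49 (SE 0.34) was the highest of the 9, and it understates the change of a gene at this level, since 0.1 was added to each value; with a pseudocount of 1 it was 1.62. In PH20_WT1 to PH20_WT4 Flrt2 was 5.22, 1.24, 2.88 and 4.05 FPKM, and in PH20_TG1 to PH20_TG4 it was 4.86, 0.339, 0.279 and 4.68 FPKM. PH20_TG2 and PH20_TG3 were below every control, and PH20_TG1 and PH20_TG4 were within the range of the controls. The difference was -1.12 (SE 0.94, limma unadjusted p = 0.262, exact permutation p = 0.371).

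Scara3 (chromosome 14, 65919394-65953935, minus strand) was 8.84, 4.13, 4.36 and 8.20 FPKM in Has2_WT1 to Has2_WT4 and 25.8, 19.3, 34.5 and 28.6 FPKM in Has2_TG1 to Has2_TG4. The groups did not overlap, and the log2 difference was 2.12 (SE 0.29). In PH20_WT1 to PH20_WT4 it was 27.4, 5.80, 15.4 and 14.1 FPKM, and in PH20_TG1 to PH20_TG4 it was 24.2, 1.51, 0.617 and 24.6 FPKM. The highest PH20_TG library was 39.9 times the lowest, the widest range of the 9 genes, and PH20_TG3 had 37 reads. The difference of -1.42 (SE 1.16) was the most negative of the 9, with a limma unadjusted p of 0.252 and an exact permutation p of 0.371.

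Pla1a (chromosome 16, 38396117-38433145, minus strand) was 11.8, 7.99, 8.65 and 19.4 FPKM in Has2_WT1 to Has2_WT4 and 46.1, 38.7, 50.8 and 43.5 FPKM in Has2_TG1 to Has2_TG4. The groups did not overlap, Has2_WT4 was the highest control, and the log2 difference was 1.98 (SE 0.26). In PH20_WT1 to PH20_WT4 Pla1a was 55.2, 16.2, 28.4 and 22.4 FPKM, and in PH20_TG1 to PH20_TG4 it was 49.7, 6.56, 3.97 and 50.1 FPKM. PH20_WT1, a control, had the highest value of all 16 libraries. The difference was -0.77 (SE 0.85, limma unadjusted p = 0.387, exact permutation p = 0.400).

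Fndc1 (chromosome 17, 7738569-7827302, minus strand) was 7.26, 4.73, 5.12 and 10.4 FPKM in Has2_WT1 to Has2_WT4 and 27.2, 20.8, 42.0 and 30.4 FPKM in Has2_TG1 to Has2_TG4. The lowest Has2_TG library was above the highest Has2_WT library, and the log2 difference was 2.14 (SE 0.29). The PH20 values of Fndc1 were 29.1, 6.52, 15.7 and 10.9 FPKM in PH20_WT1 to PH20_WT4, and in PH20_TG1 to PH20_TG4 it was 31.6, 2.54, 1.34 and 29.6 FPKM. Both high PH20_TG libraries were just above the highest control and both low ones below the lowest. The difference was -0.81 (SE 1.03, limma unadjusted p = 0.454, exact permutation p = 0.571).

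Ecm1 (chromosome 3, 95734147-95739569, minus strand) was the most abundant of the 9. It was 30.6, 27.8, 29.3 and 62.8 FPKM in Has2_WT1 to Has2_WT4 and 125, 106, 175 and 149 FPKM in Has2_TG1 to Has2_TG4, with a log2 difference of 1.94 (SE 0.27). Has2_WT4 stood above the other three controls and below every Has2_TG library. In PH20_WT1 to PH20_WT4 Ecm1 was 145, 48.2, 92.7 and 86.9 FPKM, and in PH20_TG1 to PH20_TG4 it was 197, 23.7, 22.3 and 200.9 FPKM. The difference was -0.36 (SE 0.79, limma unadjusted p = 0.664, exact permutation p = 0.800).

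**Figure D1:**
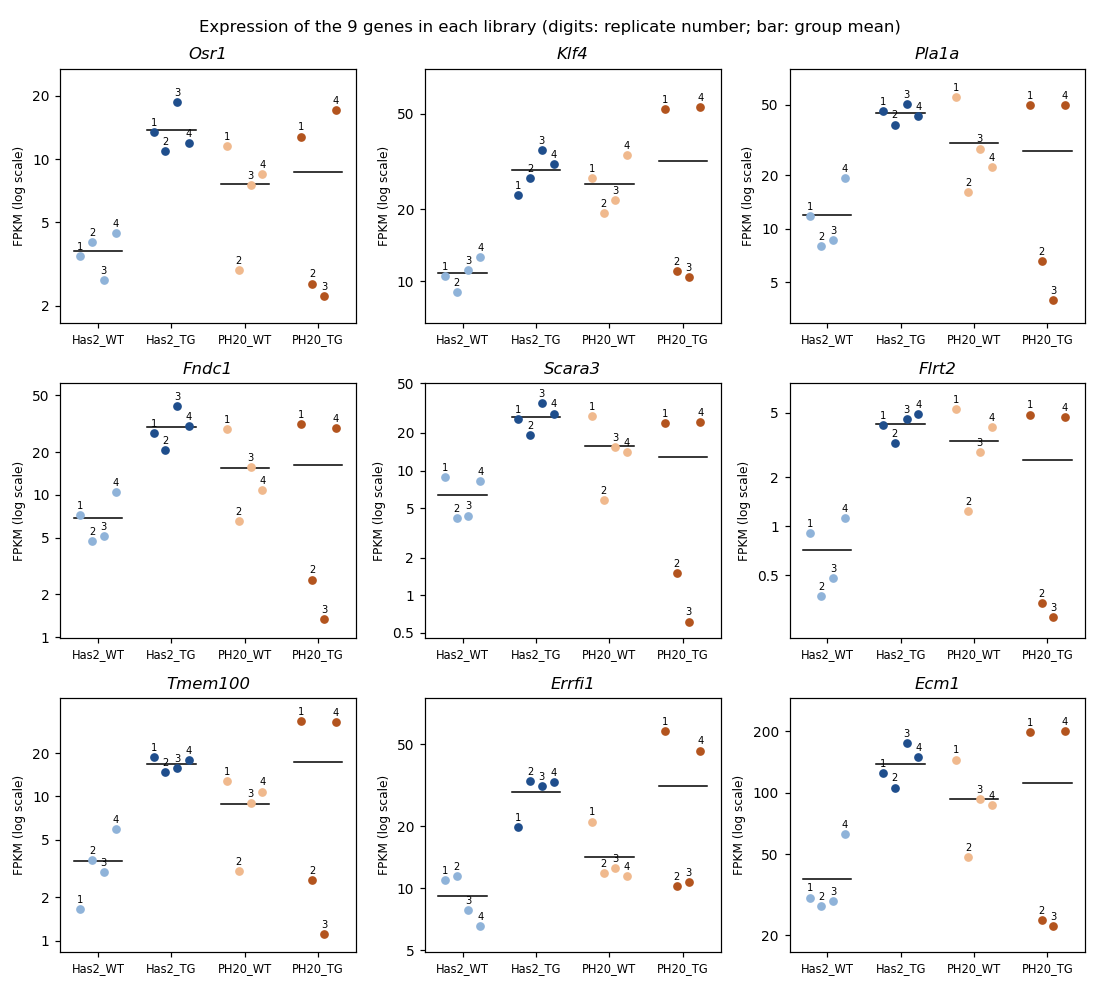
FPKM (vertical axis, log scale) of each of the 9 genes in the 16 libraries, grouped as Has2_WT, Has2_TG, PH20_WT and PH20_TG; each point is 1 library with its replicate number and each bar a group mean. Has2_TG sat above Has2_WT for every gene, while PH20_TG libraries 1 and 4 sat near or above the Has2_TG values and libraries 2 and 3 near or below the Has2_WT values.

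In the Has2 study the 9 genes were 9 of the 13 genes that passed an adjusted p of 0.05 (limma with Benjamini-Hochberg adjustment, 12606 genes tested), all 13 higher in Has2_TG, which is 0.103% of the genes tested. This count is what the choice fixed. They took places 2 to 7, 9, 12 and 13 by p-value. The other 4 were Il1r2 (log2 difference 2.42, SE 0.28), the decoy receptor for interleukin 1, Sult1e1 (1.84, SE 0.25), an oestrogen sulfotransferase, Dact2 (2.30, SE 0.32), an inhibitor of Wnt signalling, and Sfrp2 (2.42, SE 0.34), a secreted Wnt modulator. Ecm1 was the last gene inside the threshold with a difference of 1.94, and Cpz, a carboxypeptidase named after its value was seen, the first outside it with 2.47 (SE 0.36). The median difference of the 9 genes was 1.98, against -0.03 over all genes tested. Every Has2_TG library was above every Has2_WT library for all 9, as for 4.08% of the genes tested. Membership of the 13 rested on single libraries and settings: without any 1 library other than Has2_WT4, and without the 2 libraries with B cell markers, no gene passed adjustment, and without Has2_WT4 139 genes did in the higher direction, all 9 among them, and 3 in the lower. At an unadjusted p of 0.05, 627 to 878 genes rose in the fits without 1 library (limma). The differences themselves moved less, with a median of 1.86 to 2.24 over the 8 fits without 1 library and 1.95 without Has2_WT1 and Has2_WT2.

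In the PH20 study none of the 9 genes differed between PH20_TG and PH20_WT at an unadjusted p of 0.05 (limma, 0 of 9, by the exact permutation test as well), against 6.59% of the 12532 genes tested, of which 3.2% were higher and 3.39% lower. No gene of the table passed adjustment there (smallest adjusted p = 0.506). The groups overlapped for all 9, and 4.54% of the genes tested had groups that did not overlap. The log2 differences had a median of -0.36, against 0.01 over all genes tested, and 8 of 9 were negative. These signs depend on the scale. Mean FPKM was higher in PH20_TG for Osr1, Klf4, Fndc1, Tmem100, Errfi1 and Ecm1, and lower for Pla1a, Scara3 and Flrt2. The 9 genes also moved together across these libraries, so their signs are not separate observations. The 95% intervals were wide, from -1.36 to 1.23 for Klf4, the narrowest, and from -4.06 to 1.21 for Scara3, the widest, so that a 2-fold increase lay inside the interval of each gene and a 2-fold decrease inside that of all but Errfi1 (-0.56 to 2.09). Without the library labelled PH20_TG1, which had no Spam1 read, no gene of the 9 was called either and the median was -0.87, with -2.17 for Scara3 (unadjusted p = 0.091). Without PH20_WT1 and PH20_WT3, the libraries with B cell markers, no gene was called and the median was -0.10, with positive signs for Osr1 (0.25), Tmem100 (0.41) and Ecm1 (0.06) besides Errfi1 (1.00). With the skeletal muscle markers as a covariate the median was 0.45, so the sign of these small differences turned with the libraries and terms in the fit while none of these fits called a gene.

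**Figure D2:**
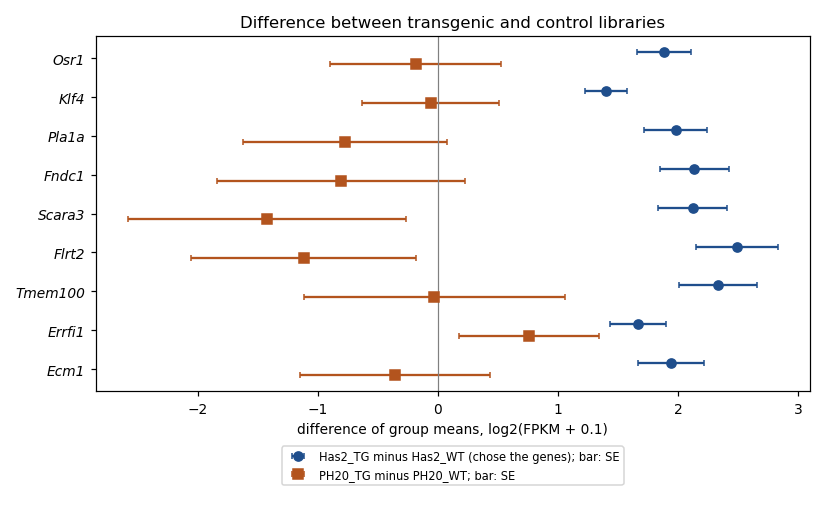
Difference of group means on log2(FPKM + 0.1) (horizontal axis) for each of the 9 genes, in the Has2 study (circles) and the PH20 study (squares), with bars of 1 SE and 4 libraries a group. The Has2 differences, which chose the genes, lay between 1.40 and 2.49, and the PH20 differences between -1.42 and 0.76 with longer errors for every gene.

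The wide intervals came from PH20_TG, whose 4 libraries fell into a high and a low pair for every gene. Set against the Has2 study, PH20_TG1 and PH20_TG4 were at or above the lowest Has2_TG library for all 9 genes, and PH20_TG2 and PH20_TG3 were at or below the highest Has2_WT library for all 9. Of the controls, PH20_WT1 was at or above the lowest Has2_TG library for 8 genes and between the Has2 groups for Tmem100, and PH20_WT3 lay between them for all 9. PH20_WT4 lay between them for 7 and above for Klf4 and Flrt2, and PH20_WT2 was at or below the highest Has2_WT library for 6 and between for Klf4, Flrt2 and Errfi1. The studies share one table and one scaling but no litter, so a level set across them compares libraries and not transgenes.

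The standard deviation within PH20_TG was 1.32 (Klf4) to 2.65 (Scara3) on log2(FPKM + 0.1), against a median of 0.28 over all genes tested, which put the 9 genes between percentiles 97.3 and 99.8 of that spread. Within PH20_WT it was 0.35 to 0.92 against a median of 0.30, from percentile 59.1 for Klf4 to percentile 94.0 for Scara3. The highest PH20_TG library was 5.06 times the lowest for Klf4, 5.65 for Errfi1, 7.68 for Osr1, 9.02 for Ecm1, 12.6 for Pla1a, 17.4 for Flrt2, 23.6 for Fndc1, 29.8 for Tmem100 and 39.9 for Scara3. The PH20_TG range enclosed the PH20_WT range for 6 of the 9, all but Pla1a, Scara3 and Flrt2, as it did for 19.2% of the genes tested. In the same libraries Has2 itself was 3.32, 0.380, 0.0990 and 3.26 FPKM in PH20_TG1 to PH20_TG4, a 33.5-fold range with the same pair high.

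The markers of adipocyte progenitors moved with the 9 genes. Their summed FPKM over 11 genes was 165 to 314 in Has2_WT and 450 to 683 in Has2_TG. It was 642, 214, 407 and 444 in PH20_WT1 to PH20_WT4 and 680, 155, 171 and 720 in PH20_TG1 to PH20_TG4. Ly6a, Pi16 and Cd248 had the highest means of the list in every group (207, 150 and 94.1 FPKM in Has2_TG). The sum, and percentages of it, therefore follow these genes most. For 8 of the 9 genes, all but Errfi1, the 3 lowest PH20 libraries were the 3 with the lowest sums (PH20_WT2, PH20_TG2 and PH20_TG3), and for 8, all but Klf4, the 3 highest were the 3 with the highest sums. In bulk tissue more cells of a type and more RNA per cell cannot be told apart. Of the 10 progenitor markers tested, 6 rose in Has2_TG at an unadjusted p of 0.05 (Pdgfra, Dpp4, Pi16, Cd34, Ly6a and Cd248), where 6.25% of all genes tested rose, and none fell, where 3.75% did. The median of the list was 1.37. None of the 10 passed adjustment. Cd55, Icam1, F3 and Fmo2 were not called, with F3 at -0.43 and Icam1 at -0.46, and in the PH20 study F3 alone was called, higher by 0.69.

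**Figure D3:**
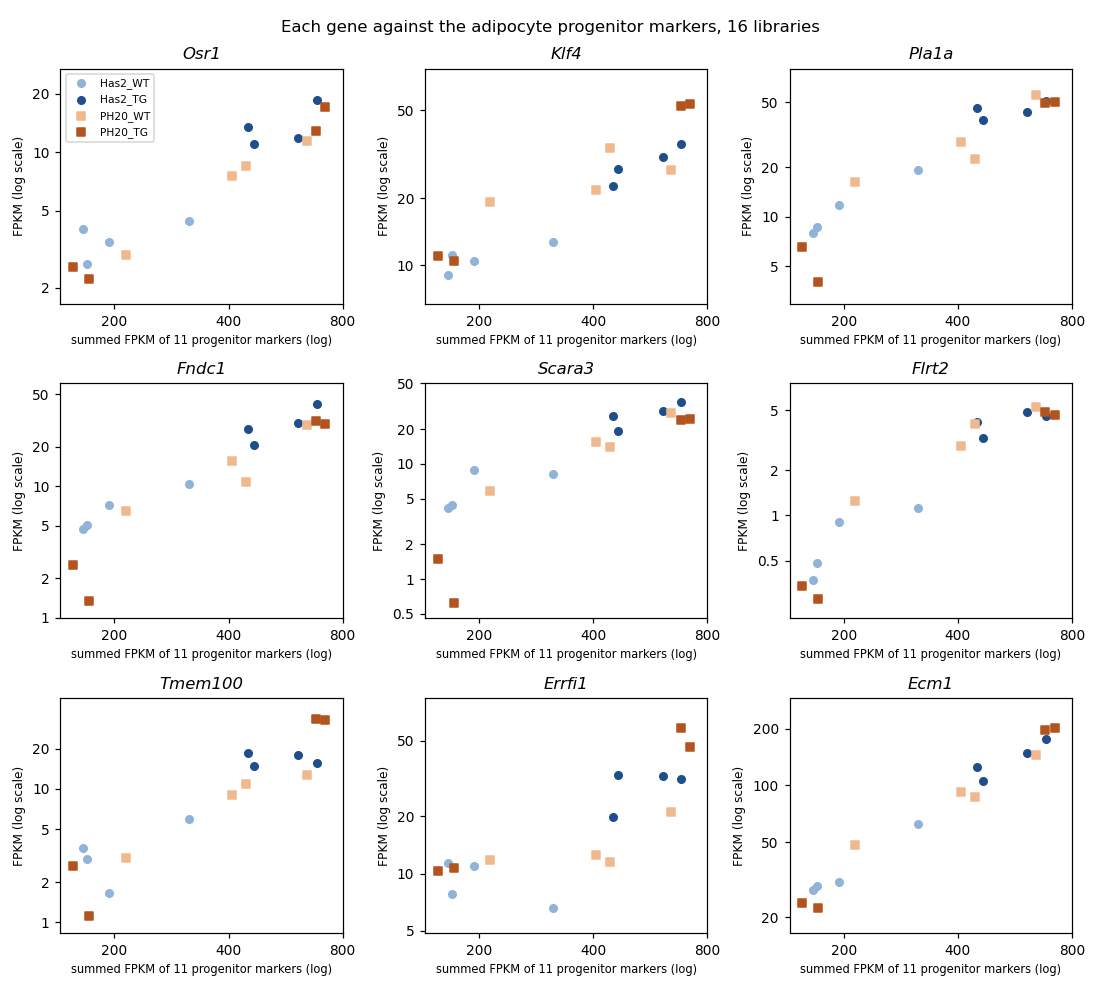
FPKM of each of the 9 genes (vertical axis, log scale) against the summed FPKM of 11 adipocyte progenitor markers (horizontal axis, log scale) in the 16 libraries, coloured by group. The libraries with low sums, Has2_WT, PH20_WT2, PH20_TG2 and PH20_TG3, lie at the lower left, with Klf4 in PH20_WT2 (19.3 FPKM) above the rest of them, and for Errfi1 PH20_WT3 and PH20_WT4 lie low as well at sums of 407 and 444.

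Relative to these markers the 9 genes parted. As a percentage of the progenitor sum, Flrt2 was 0.224% to 0.468% in Has2_WT and 0.670% to 0.931% in Has2_TG, and Ecm1 was 17.5% ± 1.80 and 25.1% ± 2.13 (SD, n = 4). The ranges of Pla1a, Fndc1 and Tmem100 did not overlap either. Those of 4 genes did: Klf4, at 4.04% to 6.57% and 5.03% to 5.81%, Errfi1, at 2.10% to 6.90% and 4.42% to 7.11%, Osr1, at 1.41% to 2.43% and 1.94% to 3.0%, and Scara3, at 2.50% to 4.56% and 4.15% to 5.74%. The Has2 libraries chose the genes, and the share of all genes tested with such ranges apart was not computed. The Has2 percentages are therefore a description with no test. In the PH20 study the ranges were apart for 1 of the 9 genes, Errfi1. It was 2.59% to 5.52% of the sum in PH20_WT and 6.24% to 8.54% in PH20_TG. The PH20 percentages were not tested, and the share of all genes tested with ranges apart was not computed there either. With the mean log2 level of the progenitor markers as a covariate, the median Has2 difference of the 9 genes was 1.02 in place of 1.98, with Errfi1 (1.67) and Tmem100 (2.07) changed least and Ecm1 (0.92) and Scara3 (0.93) about as low as Fndc1 (0.95). With the same covariate in the PH20 study 4 of the 9 genes were called, and 1147 of all 12532 genes. Errfi1 was higher by 1.08 and Tmem100 by 0.59, and Scara3 (-0.75) and Flrt2 (-0.58) were lower. Their unadjusted limma p-values were 0.00068, 0.018, 0.0016 and 0.016 in that order. No gene passed adjustment in that fit. The progenitor markers are themselves among the genes that differ in Has2_TG, and the covariate has 8 libraries to be estimated from.

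Other markers moved with the libraries too, and their part in the values of the 9 genes was not tested beyond the fits given here. Immediate early genes, which are switched on within minutes of a stimulus, had a summed FPKM over 10 genes of 212 and 286 in PH20_TG1 and PH20_TG4 and 75.2 and 77.6 in PH20_TG2 and PH20_TG3, with 58.5 to 81.5 in PH20_WT. Fos was 23.1 and 21.6 FPKM in the high pair and 1.496 and 2.01 FPKM in the low pair. In the Has2 study 2 of 9 immediate early genes tested were called and in the PH20 study 2 of 10, all higher. Of 8 macrophage markers 6 rose in Has2_TG and none was called in PH20_TG. Their sum was 318 to 638 FPKM in Has2_WT and 688 to 918 FPKM in Has2_TG. It was 2108, 257, 422 and 852 FPKM in PH20_TG1 to PH20_TG4, libraries 1 and 4 again the higher pair, with 660 to 1134 FPKM in PH20_WT. Over the 8 PH20 libraries its Pearson's r with the 9 genes (log2 scale) ran from 0.710 (Errfi1) to 0.883 (Ecm1). That of the progenitor sum ran from 0.788 (Errfi1) to 0.990 (Osr1). Skeletal muscle markers were called lower in PH20_TG for 8 of 8 and in Has2_TG for none, B cell markers were lower for 5 of 8 and 3 of 8, and T cell markers for 5 of 8 and 2 of 8. Endothelial markers gave 1 higher of 8 in each study, Schwann cell markers 1 higher of 6 in Has2_TG and 0 in PH20_TG, and smooth muscle markers 1 lower of 5 in each study. The 1 mesothelial marker tested gave none, and the adipocyte list gave none of 8 in either study. The adipocyte sum was 5292, 9918, 9583 and 6112 FPKM in PH20_TG1 to PH20_TG4, with libraries 2 and 3 the higher pair. It was 4050, 8046, 6276 and 6875 FPKM in PH20_WT1 to PH20_WT4. In the Has2 study it was 4622 to 8843 FPKM in Has2_WT and 5814 to 8243 FPKM in Has2_TG.

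Most of the relatives and partners of the 9 genes were not called in Has2_TG, though a larger share rose than over all genes tested. Of 104 genes in 8 lists, 76 were tested in the Has2 study, and 12 rose and 1 fell at an unadjusted p of 0.05, where 6.25% of all genes tested rose and 3.75% fell. None passed adjustment, and their median difference was 0.26 against -0.03 over all genes tested. Without the 2 libraries with B cell markers 13 were called. With the progenitor markers as a covariate 4 were. Prrx1, Osr2, Scara5, Unc5a, Acvrl1, Bmp4, Egfr, Spry2, Fn1 and Fbln1 each lost their call there. The progenitor sums did not overlap between Has2_WT (165 to 314 FPKM) and Has2_TG (450 to 683 FPKM). This covariate and the transgene are therefore hard to separate in 8 libraries, and a call can be lost through a larger error as well as a smaller difference.

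Among the mesenchymal transcription factors set beside Osr1, 3 of 11 tested rose and none fell. Prrx1, a homeobox factor of limb and fat mesenchyme, went from 4.51 FPKM ± 1.57 in Has2_WT to 11.2 ± 3.01 in Has2_TG (SD, n = 4), a log2 difference of 1.31 (SE 0.27, limma adjusted p = 0.084; 0.38 with the progenitor covariate). Osr2, the closest relative of Osr1, went from 1.48 ± 0.50 to 4.95 ± 2.62 FPKM (1.54, SE 0.45), or 0.40 with that covariate, and its call was also lost without the libraries with B cell markers (1.17). Tbx15, named after its value was seen, was the third, at 0.57 (SE 0.21). None of the 11 Kruppel-like factors tested besides Klf4 was called, with Klf7 at 0.58 (SE 0.33) and Klf6 at 0.36 (SE 0.22) nearest to it.

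Of the EGF receptor list beside Errfi1, 2 of 13 tested rose in Has2_TG. Egfr, the receptor that the Errfi1 protein inhibits, went from 4.46 ± 1.95 to 10.6 ± 4.03 FPKM, a log2 difference of 1.23 (SE 0.34, limma adjusted p = 0.20), and with the progenitor covariate it was -0.044 while Errfi1 stayed at 1.67. Spry2, another feedback inhibitor of receptor tyrosine kinases, went from 5.65 ± 1.49 to 8.98 ± 3.24 FPKM (0.63, SE 0.27), a call lost in 13 of 20 alternatives. The other 11 genes of the list that were tested, ligands and receptors among them, were not called. Of the bone morphogenetic protein and ALK1 list beside Tmem100, 3 of 18 rose: Bmp4, a ligand, by 1.08 (SE 0.35), Acvrl1, the gene of the ALK1 receptor, by 0.78 (SE 0.25) from 7.37 ± 1.81 to 12.8 ± 3.63 FPKM, and Bmp6, named after its value was seen, by 0.61 (SE 0.21). With the progenitor covariate Bmp4 was 0.34 and Acvrl1 0.16.

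Of the proteins that Ecm1 binds, 3 of 7 rose, with a median of 0.16 over the list. Fn1, fibronectin, went from 28.3 ± 16.4 to 118 ± 41.2 FPKM, a log2 difference of 2.19 (SE 0.42, adjusted p = 0.078), and Fbln1, fibulin 1, from 3.42 ± 1.87 to 11.6 ± 4.40 FPKM (1.81, SE 0.40). With the progenitor covariate Fn1 was 0.34 and Fbln1 -0.021. The third was Mmp9, a matrix metalloproteinase named after its value was seen, at 0.98 (SE 0.27). Perlecan (Hspg2), also named afterwards, was at 0.16 (SE 0.21) and not called. Of the class A scavenger receptors, Scara5, which binds ferritin, rose from 9.72 ± 4.80 to 35.6 ± 11.8 FPKM (1.92, SE 0.35, adjusted p = 0.072), or 0.32 with the progenitor covariate, and the other 3 were not called, Colec12 at 0.62 (SE 0.28) among them. None of 4 genes of the Pla1a lipase and lysophosphatidylserine receptor list was called. Gpr34, a receptor for lysophosphatidylserine, was at 0.99 (SE 0.50), and Gpr174, another such receptor found on lymphocytes, at -2.38 (SE 1.11), a gene that was -0.30 without the 2 control libraries with B cell markers. For Flrt2, 1 of 8 family members and binding partners was called, Unc5a, a netrin receptor that fell (-0.48, SE 0.21; -0.27 with the progenitor covariate) and whose call was lost in 10 of 20 alternatives, and Fgfr1 was at 0.43 (SE 0.20).

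In the PH20 study 6 of 74 partners tested were higher and none lower, none after adjustment, where 3.2% of all genes tested were higher. They were chosen after their values were seen: Spry4 (1.23, SE 0.32), Lipg (1.21, SE 0.53), Bmper (0.69, SE 0.30), Col4a1 (0.53, SE 0.21), Col4a2 (0.52, SE 0.17) and Hspg2 (0.43, SE 0.16). Lipg was not tested in the Has2 study, and the others were not called there. Fn1 (-1.40, SE 1.24), Scara5 (-0.99, SE 1.03) and Osr2 (-0.99, SE 0.92) had wide errors like those of the 9 genes. No partner had a Has2 difference that differed from its PH20 difference after adjustment (smallest adjusted p = 0.599 for the interaction, limma).

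**Figure D4:**
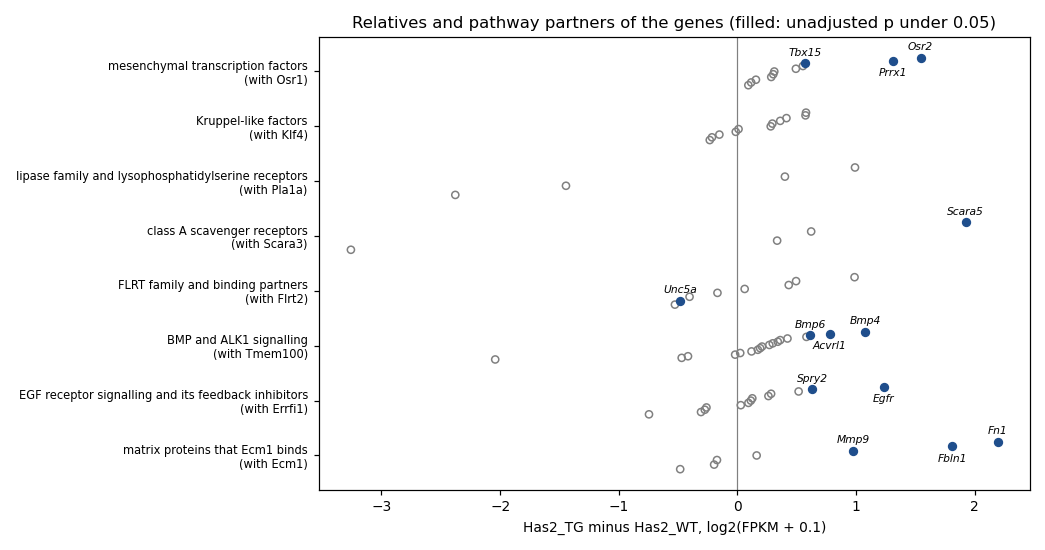
Has2_TG minus Has2_WT on log2(FPKM + 0.1) (horizontal axis) for the relatives and partners of 8 of the genes, by list; each point is 1 gene, filled and named where its unadjusted p is under 0.05. The filled points lie between 0.57 and 2.19 except Unc5a at -0.48, with Fn1, Scara5 and Fbln1 farthest to the right.

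The genes whose pattern was most like each of the 9 were found by Pearson's r of log2(FPKM + 0.1) over the 16 libraries after the mean of each group was taken off. These correlations share the libraries, and much of them is the split within PH20_TG, so they are descriptions with no test. Scara3 was nearest to Col14a1, a fibril-associated collagen (0.992), and Dpp4, a surface marker of early adipocyte progenitors (0.992). Flrt2 was nearest to Opcml (0.991) and Fn1 (0.989), Fndc1 to Scara5 (0.989) and Anxa3 (0.988), and Pla1a to the same pair, Anxa3 (0.985) and Scara5 (0.981). Ecm1 was nearest to Ackr3, a scavenging chemokine receptor (0.989), and Thbs3 (0.984). Tmem100 was nearest to Procr, the endothelial protein C receptor (0.985), and Ugdh, the enzyme that makes the UDP-glucuronate from which hyaluronan is built (0.971). Osr1 was nearest to Ntn4 (0.966) and Ltbp1 (0.960), and Klf4 to Adra1b (0.962) and Sfrp2 (0.955). Errfi1 stood apart, with the lowest top value (0.938), for the AP-1 subunit Junb, and 0.923 for Wnt11. Without taking off the group means, 1 or both of the nearest genes changed for every one of the 9, while Ltbp1 stayed beside Osr1, Anxa3 beside Pla1a, Scara5 beside Fndc1, Dpp4 beside Scara3, Opcml beside Flrt2 and Procr beside Tmem100.

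Dpp4 followed Scara3 through the libraries, at 16.1, 1.09, 0.266 and 15.2 FPKM in PH20_TG1 to PH20_TG4. Among the 9 genes themselves, r over the 36 pairs ran from 0.777 to 0.991 (median 0.930) over all 16 centred libraries and from 0.646 to 0.998 over the 8 PH20 libraries. Over the 8 centred Has2 libraries it ran from -0.581 to 0.929 (median 0.553). In the PH20 libraries the pair most alike was Pla1a and Fndc1 (0.998) and the pair least alike Flrt2 and Errfi1 (0.646), and no other gene of the 9 had an r above 0.840 with Errfi1.

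Overlapping annotations touched 4 of the 9 genes. An antisense transcript at Errfi1 and a divergent one at Osr1 had 0 reads in every library, as had a microRNA gene within Ecm1. A pair of transcripts annotated on the strand of Flrt2 had 22 and 3 reads in all 16 libraries together.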

How the data were processed

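Bulk RNA of iWAT was measured in 16 libraries, 1 per mouse as labelled. The authors made TruSeq libraries from RNA of integrity above their cut-off and, per the labels, checked reads with FastQC 0.11.9 and MultiQC 1.12, aligned them to GRCm38 with STAR 2.7.9a and counted them per GENCODE gene with STAR; whether the counting used strand is not given in the sources used here. They deposited FPKM per gene and library with each gene's length. These FPKM carry a scaling between libraries of 0.886 to 1.14 set by the authors, and multiplied by length and library total they gave whole reads in 100% of values (tolerance 0.01 read), 14421692 to 26751729 per library. The 95% intervals of the PH20 differences come from the limma fit, so they include the spread among mice. The floors (3 reads) cover counting error only.

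Each study was tested on its 8 libraries with limma 3.58.1 (R 4.3.3), moderated two-sided test with a variance trend, on log2(FPKM + 0.1), where a gene averaged 50 reads or more over them; a fold change on that scale understates the change of low genes. A gene was called at an unadjusted p under 0.05, the threshold of the study, and Benjamini-Hochberg values were taken over all genes tested. Single values were tested by exact two-sided permutation over 70 regroupings (smallest p 0.0286). The procedure was tested on simulated data. A marker score is the mean log2(FPKM + 0.1) of a list. Counts of reads were used for voom only, since the deposited values are FPKM, and no count model was fitted. No library pair agreed within sampling noise (120 pairs, 12593 genes, smallest chi-square per degree of freedom 28.7).

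The 9 genes and the lists of markers and partners were chosen with earlier results of these data known. Genes named are the 9, the pair of smallest p in each partner list in the Has2 contrast, the pair most like each of the 9, other genes ranked before the last of the 9, and the transgenes; partners and Cpz named outside this rule are marked, and the progenitor markers and Fos were named outside it too. Alternatives were another pseudocount, filter, scaling, weighting, fit, block, covariate, and each library left out. The cold exposure, qPCR and hyaluronan measurements were not analysed here.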

Additional observations from a re-analysis of the deposited data

Results flagged for a closer look

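Of the 36 group values of the 9 genes, 3 held a library far from the other three of its group by Dixon's test, where chance alone gives about 1 in 20. Errfi1 was 19.9 FPKM in Has2_TG1, against 31.4 to 33.1 FPKM in the other Has2_TG libraries. Errfi1 was also 21.1 FPKM in PH20_WT1, against 11.5 to 12.5 FPKM in the other PH20_WT libraries. Ecm1 was 62.8 FPKM in Has2_WT4, against 27.8 to 30.6 FPKM in the other Has2_WT libraries. Without Has2_TG1 the Has2 difference of Errfi1 was 1.84, and without Has2_WT4 that of Ecm1 was 2.22. Without PH20_WT1 the PH20 difference of Errfi1 was 0.97 (limma unadjusted p = 0.169).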

How the results depend on the processing

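The 9 genes were chosen on the Has2 contrast, and every Has2_TG library was above every Has2_WT library for all 9. Leaving out 1 library or adding another pseudocount therefore could not turn the sign of their difference. Over the alternatives this difference ran from 0.92 upward. How many genes passed adjustment as higher in the Has2 study (13) did not hold. It was 26 with a pseudocount of 1, 48 with voom weights (and 3 lower), 40 with the skeletal muscle score as a covariate, 1 with the B cell score, and 0 with no filter, a mean FPKM of at least 1, no variance trend, all 16 libraries in one fit, the progenitor score, or without the libraries with B cell markers (added after the data were seen). Without 1 library it was 0 to 139, with 139 without Has2_WT4 (and 3 lower). In the PH20 study none of the 9 was called under any alternative except the progenitor score (4), and all genes called (826) were 1305 with no filter and 273 with the muscle score. Partner genes called in the Has2 study (13) were 4 with the progenitor score, and in the PH20 study (6) were 1 with the muscle score and 2 to 10 without 1 library, with 10 without PH20_WT2, 2 without PH20_WT3 and 3 without PH20_TG4.

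Whether replicate numbers pair the samples is not given by the labels and was not settled here. Same-numbered libraries correlated at -0.176 to 0.126 in the Has2 study and -0.042 to 0.421 in the PH20 study. PH20_WT1 (0.346) and PH20_WT2 (0.421) were each most like the PH20_TG library of the same number. In the Has2 study this held for Has2_WT2 (0.126) and for no other control. With the replicate block 0 genes passed adjustment in the Has2 study, 1302 genes were called in the PH20 study and 12 partner genes there, and none of the 9 genes was called.

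Some signs turned. In the Has2 study with the progenitor score Klf6 was -0.37, Colec12 -0.56, Egfr -0.044, Spry2 -0.050 and Fbln1 -0.021. In the PH20 study Tmem100 was 0.11 with a pseudocount of 1. Osr1, Klf4, Tmem100 and Ecm1 were 0.51, 0.63, 0.72 and 0.45 with the muscle score and 0.22, 0.25, 0.59 and 0.10 with the progenitor score. Osr1, Fndc1, Tmem100 and Ecm1 were 0.33, 0.028, 0.47 and 0.16 with the B cell score, and Osr1, Tmem100 and Ecm1 were 0.25, 0.41 and 0.063 without the libraries with B cell markers. Without 1 library the PH20 values ran from -0.69 to 0.27 for Osr1, -0.44 to 0.33 for Klf4, -1.49 to 0.0010 for Fndc1, -0.73 to 0.86 for Tmem100 and -0.88 to 0.18 for Ecm1. The causes were not tested. The lowest reads of any of the 9 genes in a library were 33, for Tmem100 in PH20_TG3.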
